A study of Rattus norvegicus with 2 samples.

Results

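Histone-modifying enzyme genes were compared between bladder tumors of rats given dimethylarsinic acid (DMA) and control bladders. The members were the genes whose symbol on the array platform starts with Hdac, Sirt, Kdm, Kmt, Setd, Ezh, Prmt or Kat followed by a number, which was the case for 72 of the 22093 genes that had a probe set with a single gene symbol. Those with at least 1 of their 2 array signals at 100 or above were taken as measured, which left 65. The 7 others, Hdac9, Sirt4, Prmt8, Kdm4dl, Kmt5al2 and the pseudogenes Hdac1-ps9 and Kmt5c-ps1, were under 100 on both arrays. Kdm6a, Kdm7a, Setd1b, Setd9 and Prmt2 were not analysed here.

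The DMA-tumor array held RNA pooled from 6 bladder carcinomas of male rats of the inbred strain F344 that received DMA, a methylated metabolite of arsenic, at 200 ppm in their drinking water for 2 years from 10 weeks of age. The Control array held RNA pooled from 5 urinary bladders of untreated males of the same strain (0 ppm DMA), and rats of both groups are labelled as 114 weeks old. The labels call the Control tissue epithelium, and the results of the study speak of normal bladder urothelium. Its methods instead speak of bladder tissue and of fewer tumors than the labels, and the tumors were not examined by histology. As only 1 pooled array stood for each group, the differences carry no error between animals and were not tested, and precision is limited by there being 2 arrays in all.

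Of all probe sets, 36.01% in the DMA-tumor array and 33.0% in the Control array reached a signal of 100. Cell type markers differed widely between the arrays. Of 15 fibroblast and matrix genes, 13 were at least 2-fold lower and 0 higher, with summed signals of 2313 in the DMA-tumor array and 167170 in the Control array, so the Control tissue labelled epithelium held strong stromal signals. Smooth muscle markers (13 measured, 10 lower and 1 higher) summed, over all 15 with a probe set, to 8105 in the DMA-tumor array and 62282 in the Control array, and leukocyte markers (10 measured, 5 lower and 1 higher), over 17 with a probe set, to 2560 in the DMA-tumor array and 7672 in the Control array. Urothelial differentiation markers reached 100 on both arrays except Krt20 (77.9 in the DMA-tumor array and 5761 in the Control array). Their sums were 711874 in the DMA-tumor array and 2347230 in the Control array, and 12 of 15 were at least 2-fold lower. Of 12 basal markers, 7 were at least 2-fold higher and 1 lower. In pooled tissue, fewer cells of a type and less RNA per cell cannot be told apart. Among 1276 olfactory and vomeronasal receptor genes, which are silent in most tissues, 1270 were under 100 on both arrays. Counted without the signal limit, 3 of the 1276 were at least 2-fold higher and 8 at least 2-fold lower. These counts are therefore not comparable with those of measured genes.

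Histones are the proteins around which DNA is wound, and chemical groups on their tails affect how readily genes are transcribed. Acetyl groups are added to lysines by acetyltransferases (Kat genes) and removed by zinc-dependent deacetylases (Hdac genes) and NAD-dependent sirtuins (Sirt genes). Methyl groups are added to lysines mostly by SET domain enzymes (Kmt, Setd and Ezh genes), added to arginines by Prmt enzymes and removed from lysines by Kdm enzymes. In human bladder cancer several of these genes, KMT2D among them, are recurrently mutated, but mutations were not measured here.

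The enzyme genes mostly had similar signals on the arrays. Setd4 and Kmt5a were at least 2-fold higher and Hdac5 at least 2-fold lower in the DMA-tumor array. That is 2 of 65 members higher (3.08%), beside 8.87% of all 12074 measured genes, and 1 of 65 lower (1.54%), beside 10.5% of all measured genes. The methods of the study also ask for a Z-score of 2 without giving its formula. Here it was taken as the difference of a gene from the mean difference of all measured genes in standard deviations, which asked for at least 3.93-fold higher or 4.32-fold lower among the genes called. By this rule 0 members were higher, beside 2.53% of all measured genes, and 0 were lower, beside 2.37%. At a ratio of 1.5, 7 members were higher (Setd4, Kmt5a, Setd5, Kmt2d, Hdac7, Ezh2 and Kmt2a), beside 16.7% of all measured genes, and 7 were lower (Hdac5, Kat5, Hdac1, Ezh1, Hdac11, Hdac1l and Prmt1), beside 21.5%. The median log2 difference (DMA-tumor minus Control) of the members was -0.03 and that of all measured genes -0.08. The standard deviation of the differences was 0.47 over the members and 1.02 over all measured genes, and 78.5% of the members, against 61.8% of all measured genes, lay within 1.5-fold. With quantile normalization, which put 6.44% of all genes at least 2-fold higher and 16.4% at least 2-fold lower, 0 members were higher, so neither Setd4 nor Kmt5a was called, and 5 were lower (Hdac5, Ezh1, Hdac1, Hdac11 and Kat5).

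**Figure D1:**
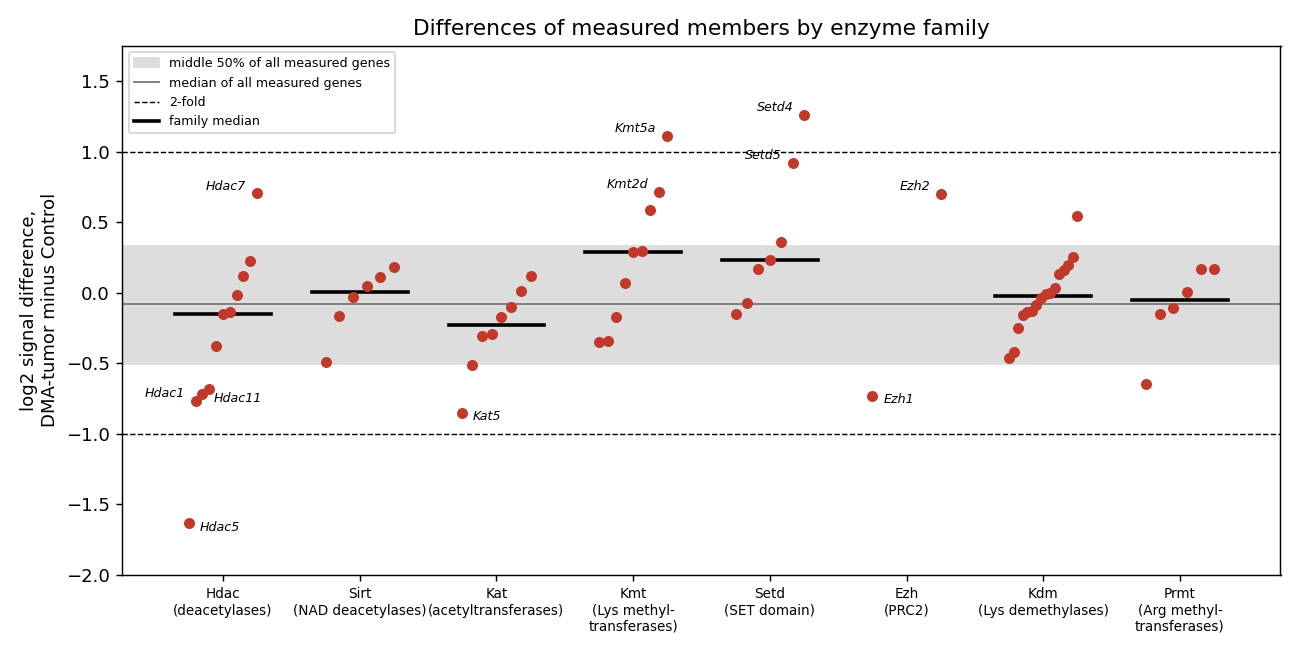
Log2 signal difference, DMA-tumor minus Control, of the 65 measured members (points) by enzyme family, with family medians (black bars, for families of 3 or more), the middle 50% of all measured genes (grey band) and the 2-fold limits (dashed lines). Setd4 (1.26) and Kmt5a (1.11) lie above the upper limit and Hdac5 (-1.64) below the lower one.

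The DNA upstream of the 3 genes past 2-fold, and of Ezh2 for its place in the polycomb complex described below, is shown because these members carry the calls and the contrast within that complex. The sequences are from RefSeq (build GRCr8), run from 250 bases before to 30 bases after the annotated start, and lie on the minus strand at chr11:46343995-46344274 (Setd4), chr12:37817997-37818276 (Kmt5a), chr10:87688025-87688304 (Hdac5) and chr4:77687154-77687433 (Ezh2). Capitals mark matches, on either strand, to ACGTG (the core of the hypoxia response element), TTTCCCGC, TTTGGCGC or TTTCGCGC (E2F sites), TTTGAA (the cell cycle homology region, CHR) or TGACNNNGC (the core of the antioxidant response element).
Setd4: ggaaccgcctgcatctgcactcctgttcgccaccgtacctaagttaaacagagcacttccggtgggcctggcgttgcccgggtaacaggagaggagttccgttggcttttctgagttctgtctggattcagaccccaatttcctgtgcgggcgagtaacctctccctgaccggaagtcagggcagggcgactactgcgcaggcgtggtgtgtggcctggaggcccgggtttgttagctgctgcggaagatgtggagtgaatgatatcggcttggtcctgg
Kmt5a: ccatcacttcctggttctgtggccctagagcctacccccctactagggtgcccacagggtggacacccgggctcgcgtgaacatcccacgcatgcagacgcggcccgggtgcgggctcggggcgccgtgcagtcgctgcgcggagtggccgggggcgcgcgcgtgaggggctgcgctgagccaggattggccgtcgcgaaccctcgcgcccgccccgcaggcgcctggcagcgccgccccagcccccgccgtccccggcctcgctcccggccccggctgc
Hdac5: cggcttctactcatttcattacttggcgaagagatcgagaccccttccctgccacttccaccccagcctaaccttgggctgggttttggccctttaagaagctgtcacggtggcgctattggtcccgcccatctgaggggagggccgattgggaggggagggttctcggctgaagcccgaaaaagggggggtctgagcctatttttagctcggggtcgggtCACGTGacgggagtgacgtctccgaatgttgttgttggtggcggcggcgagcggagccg
Ezh2: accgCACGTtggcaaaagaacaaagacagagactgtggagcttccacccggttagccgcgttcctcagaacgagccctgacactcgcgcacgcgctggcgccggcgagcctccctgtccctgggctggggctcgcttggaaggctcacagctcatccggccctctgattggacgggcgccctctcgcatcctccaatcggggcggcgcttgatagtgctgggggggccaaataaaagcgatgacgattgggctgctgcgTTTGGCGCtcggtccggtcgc

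The Hdac5 window holds a palindromic CACGTG that matches ACGTG on both strands, beginning 29 bases before the start. The Ezh2 window holds 1 match to ACGTG, 246 bases before the start, and the E2F letters TTTGGCGC, 9 bases after it. In the windows of Setd4 and Kmt5a these letters were not found. Promoter windows of 300 bases were matched for 53 of the 65 measured members (66 windows). The members without an entry were Ezh1, Hdac11, Hdac1l, Kat2a, Kat6a, Kmt2a, Kmt2d, Kmt2e, Prmt3, Setd5, Setd7 and Sirt6. ACGTG occurred in 16 of the 66 windows (24.2%) and in 19.3% of all 33469 windows of the table, and an E2F match in 3 (4.55%) and in 1.72% of all windows. The 3 windows with an E2F match were those of Ezh2, Kdm1a and Kmt5c. CHR letters were found in 6 windows (9.09%, against 18.3% of all), and antioxidant core letters in 13 windows (19.7%, against 12.1% of all), of which 5 belong to the single gene Kmt2c, so windows are not independent.

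The SET domain methyltransferase genes (Kmt, Setd and Ezh) included both members called higher, 2 of 17 or 11.8%, a share near the 8.87% of all measured genes. Of these 17, the copy Kmt5al3 left aside, 11 had a positive and 6 a negative log2 difference, with a median of 0.29. Without Setd3, whose substrate is a histidine, 16 genes grouped as lysine methyltransferases remained, 11 positive and 5 negative, with a median of 0.29. Kmt2e and Setd5, both positive, were kept among these 16, although their own catalytic activity is in doubt, as described below. Of all measured genes, 55.6% had a negative difference. By symbol, the median was 0.29 over 9 Kmt genes and 0.23 over 7 Setd genes. The Kmt median was 0.01 with the loess trend removed, 0.06 with quantile normalization and 0.16 when probe sets of the same gene were averaged. With quantile normalization the Setd median was -0.01 and that of all genes -0.34.

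Setd4, a SET domain methyltransferase whose role is less well known, had the highest ratio of the measured members. Its signal was 300.1 in the DMA-tumor array and 125.0 in the Control array, a 2.40-fold higher level near the low-signal limit. Kmt5a encodes the enzyme that places a single methyl group on lysine 20 of histone H4 and whose protein level follows the cell cycle. The signal of Kmt5a was 3882 in the DMA-tumor array and 1797 in the Control array (2.16-fold higher). The other enzymes of this residue, Kmt5b and Kmt5c, which add the further methyl groups, had log2 differences of -0.35 each, opposite in sign to Kmt5a. A copy, Kmt5al3, was at 169 in the DMA-tumor array and 161 in the Control array, and whether probes are shared between the copies was not tested. Setd5, a SET domain protein whose own catalytic activity is uncertain, stood just under the limit at 1.90-fold, with signals of 3191 in the DMA-tumor array and 1683 in the Control array.

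Among the 7 genes grouped with methylation of lysine 4 of histone H3, a mark of active promoters and enhancers, 5 had a positive and 2 a negative difference, with a median of 0.30. Kmt2d, an enhancer methyltransferase, gave 2558 in the DMA-tumor array and 1557 in the Control array (1.64-fold higher). Kmt2a, the homologue of Drosophila trithorax, gave 2241 in the DMA-tumor array and 1492 in the Control array (1.502-fold higher). Kmt2c, the paralogue of Kmt2d, was at 0.30, and its other probe set at 0.03. Kmt2e, whose SET domain is thought to lack this activity, was at 0.29, and the 6 other genes had a median of 0.33 (4 positive, 2 negative). The value of Setd7, which adds a single methyl group, was 0.36. Kmt2b and Setd1a had differences of -0.17 and -0.15. None of the 7 reached 2-fold.

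The catalytic subunits of polycomb repressive complex 2 (PRC2), which methylates lysine 27 of histone H3, differed in opposite directions. Ezh2, the form of dividing cells, gave 595 in the DMA-tumor array and 366 in the Control array (log2 difference 0.70). Ezh1, the form found also in resting cells, gave 11909 in the DMA-tumor array and 19771 in the Control array (log2 difference -0.73). Neither reached 2-fold, and with the loess trend removed or with quantile normalization Ezh1 was at least 2-fold lower. In these 2 settings, 13.5% and 16.4% of all measured genes were at least 2-fold lower. Cell cycle markers moved with Ezh2 and Kmt5a, since 13 of 21 measured markers were at least 2-fold higher and 0 lower. The summed signal of all 25 listed markers, the 4 under 100 on both arrays included, was 15944 in the DMA-tumor array and 7158 in the Control array, and their part in the difference of either gene was not tested. Setd2, which makes trimethylated lysine 36 of histone H3, was at 0.17. Setd3, which methylates a histidine of actin rather than a histone, was at -0.07, and Setd6, which methylates the NF-kB subunit RelA, was at 0.23.

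**Figure D2:**
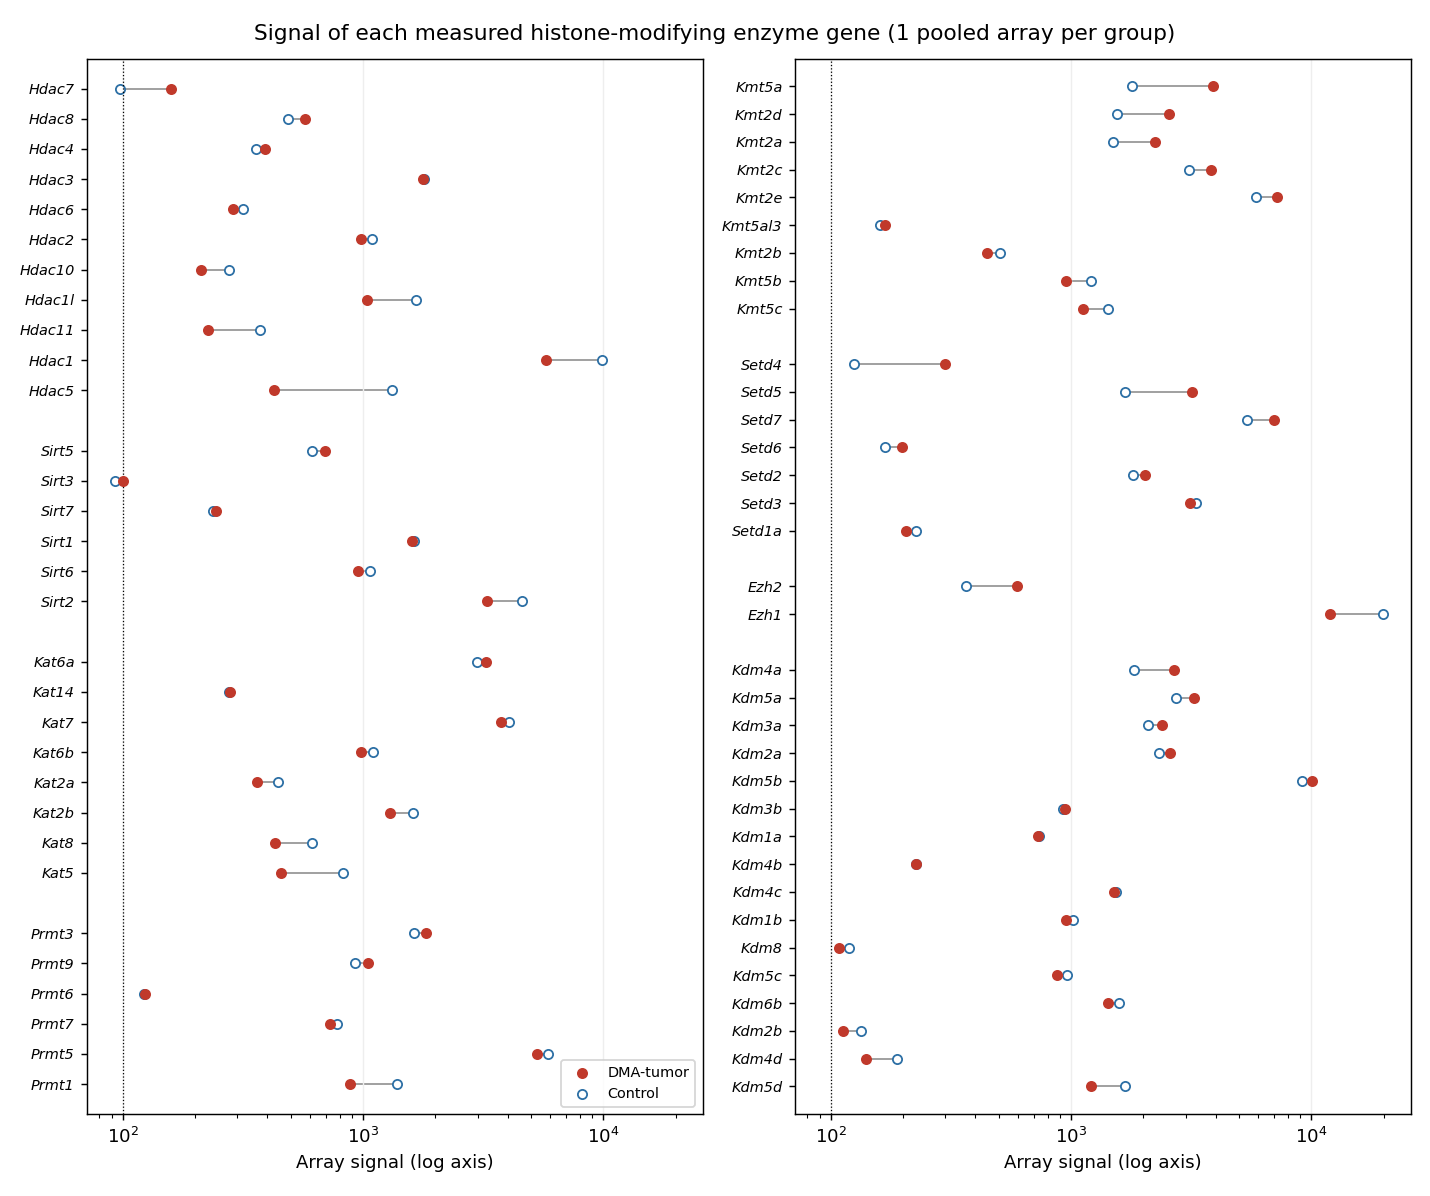
Array signal (log axis) of each of the 65 measured members in the DMA-tumor array (filled red) and the Control array (open blue), grouped by family and sorted by their difference, with the low-signal limit of 100 dotted. Most pairs of points lie close together, and the widest gaps are those of Hdac5, Setd4 and Kmt5a.

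Lysine demethylase genes had similar signals on the arrays. All 16 measured Kdm genes lay within 1.5-fold, from -0.46 to 0.54, beside 61.8% of all measured genes. Their differences were 6 positive and 10 negative (62.5%), near the 55.6% negative of all measured genes, with a median of -0.02. Kdm4a, which removes methyl groups from lysines 9 and 36 of histone H3, had the highest difference, with signals of 2675 in the DMA-tumor array and 1835 in the Control array. Kdm5d, a Y-linked H3 lysine 4 demethylase, had the lowest (1214 in the DMA-tumor array and 1671 in the Control array), followed by Kdm4d (141 in the DMA-tumor array and 189 in the Control array). Kdm5a, a further demethylase of lysine 4, was at 0.25, and Kdm5b, with the highest signals of the family (10029 in the DMA-tumor array and 9141 in the Control array), at 0.13. The flavin-dependent enzymes Kdm1a and Kdm1b were at -0.004 and -0.09. Kdm2a and Kdm2b, which act on lysine 36, were at 0.16 and -0.25, and Kdm3b, Kdm4b and Kdm4c, which act on lysine 9, at 0.03, -0.01 and -0.04. Kdm3a, an H3 lysine 9 demethylase whose gene is known in human cells as a target of hypoxia-inducible factor, had 2387 in the DMA-tumor array and 2088 in the Control array (1.14-fold). This stood beside hypoxia and glycolysis genes of which 13 of 18 were at least 2-fold higher and 0 lower, with signals summed over 19 genes, 1 of them under 100 on both arrays, of 278379 in the DMA-tumor array and 63682 in the Control array, and their part in the value of Kdm3a was not tested. Kdm6b, the H3 lysine 27 demethylase measured, was at -0.16. The remaining members were Kdm5c, also a lysine 4 demethylase, at -0.14 and Kdm8 at -0.13.

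For lysine 4 of histone H3, the genes grouped as writers had a median of 0.30 (7 genes, or 0.33 over 6 without Kmt2e) and those for erasers a median of -0.05 (6 genes), and their ranges overlapped. The writers ran from -0.17 to 0.72 and the erasers from -0.46 to 0.25. These medians were taken from the deposited values and were not recomputed with other normalizations. Loess values are given only for members with the largest absolute differences in their family, so they do not show either group. With the loess trend removed, Setd7, Kmt2a and Kmt2d, the highest writers as deposited, were at 0.10, 0.53 and 0.65. The other writers, among them Kmt2b and Setd1a with negative deposited differences, are not given with loess. The erasers Kdm5a and Kdm5d were at 0.15 and -0.51 with the loess trend removed, and the median of the Kmt genes was 0.01. For acetyl groups, the writers had a median of -0.23 (8 genes, 75% negative). The erasers had one of -0.08 (16 Hdac and Sirt genes, the copy Hdac1l left aside, 62.5% negative). These 16 included the mitochondrial Sirt3 and Sirt5 and the tubulin deacetylase Hdac6, so the group was not limited to histone enzymes. All measured genes had a median of -0.08 with 55.6% negative, so the erasers lay near all genes.

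**Figure D3:**
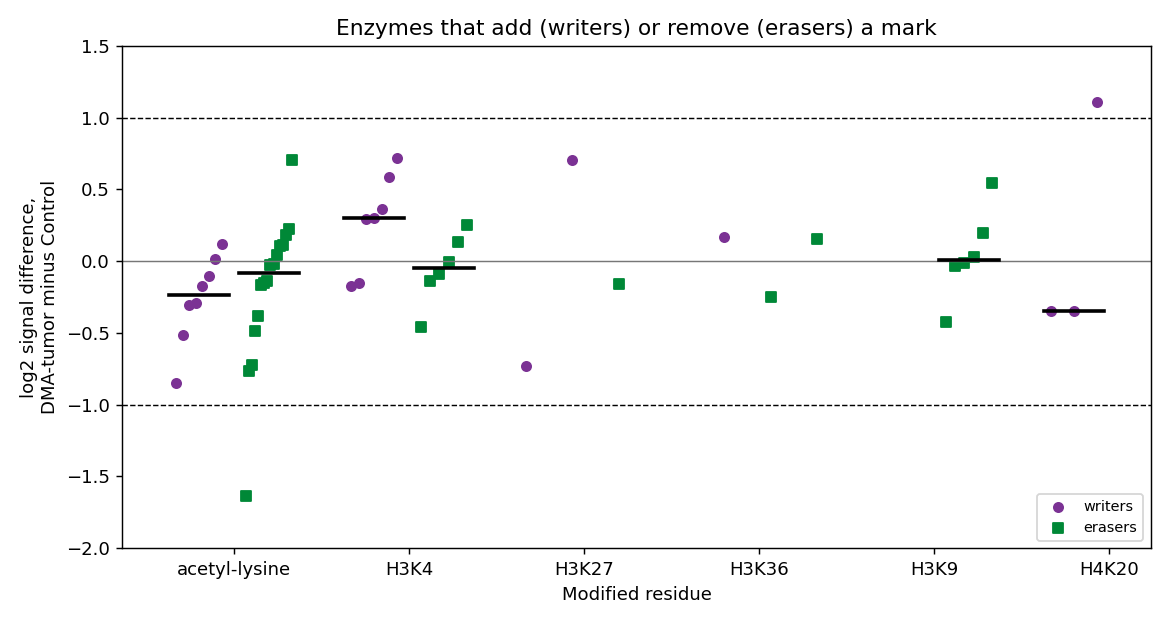
Log2 signal difference, DMA-tumor minus Control, of genes for enzymes that add (purple circles) or remove (green squares) a group, by modified residue, with medians for 3 or more genes (black bars) and the 2-fold limits (dashed). In the deposited values, genes grouped as H3K4 (lysine 4 of histone H3) writers, Kmt2e included, have a median of 0.30, and its erasers -0.05. The 2 H3K27 writers, Ezh2 and Ezh1, lie on either side of 0.

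Among Hdac genes, 1 of 11 was called lower (9.09%), a share near the 10.5% of all measured genes. Of 11 measured, 8 had a negative (72.7%) and 3 a positive difference, beside 55.6% negative of all measured genes, with a median of -0.15. Hdac5, a class IIa deacetylase that shuttles between nucleus and cytoplasm and represses MEF2 targets in muscle, gave 427 in the DMA-tumor array and 1326 in the Control array (3.11-fold lower). Of the other class IIa genes, Hdac4 was at 0.12 (390.2 in the DMA-tumor array and 360.3 in the Control array) and Hdac7 was at least 1.58-fold higher (158 in the DMA-tumor array and 97.3 in the Control array). The smooth muscle sum (8105 in the DMA-tumor array and 62282 in the Control array) and the fibroblast sum (2313 in the DMA-tumor array and 167170 in the Control array) moved in the same direction as Hdac5. So did the urothelial differentiation and leukocyte sums given above, so this direction was not particular to smooth muscle and fibroblast markers. The part of any of these cell types in the difference of Hdac5 was not tested.

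Hdac1, a class I enzyme found in several corepressor complexes, had 5766 in the DMA-tumor array and 9819 in the Control array (1.70-fold lower). Its copy Hdac1l showed a like ratio (1038 in the DMA-tumor array and 1665 in the Control array, 1.60-fold lower). Whether the copies share probes was not tested, so both values are uncertain. Hdac2, the partner of Hdac1 in those complexes, was at -0.15, Hdac3 at -0.02 and Hdac8 at 0.23 (its other probe set at 0.25), so the class I differences had both signs. Hdac11, the class IV enzyme, had 227 in the DMA-tumor array and 374 in the Control array (1.65-fold lower). The class IIb genes Hdac6, which deacetylates tubulin, and Hdac10 were at -0.13 and -0.38.

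Sirtuin genes lay close to the Control values. All 6 measured were within 1.5-fold, beside 61.8% of all measured genes, with 3 positive and 3 negative differences. Sirt2, the mainly cytoplasmic sirtuin, had the lowest difference (-0.49, with signals of 3267 in the DMA-tumor array and 4587 in the Control array). Sirt1 and Sirt6, nuclear enzymes, were at -0.03 and -0.16, the mitochondrial Sirt5 at 0.18, and the nucleolar Sirt7 at 0.04. Sirt3, also mitochondrial, had 101 in the DMA-tumor array and 93.3 in the Control array, which is under the limit of 100, so its fold is a bound of at least 1.01. The sign of its log2 difference turned with the loess trend removed (-0.01) and with quantile normalization (-0.16).

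Acetyltransferase genes had negative differences in 6 of 8 cases (75%), beside 55.6% of all measured genes, with a median of -0.23. Past 2-fold were 0 of them, beside 8.87% higher and 10.5% lower among all measured genes. Kat5, the TIP60 enzyme of chromatin remodelling and DNA damage signalling, had 456 in the DMA-tumor array and 822 in the Control array (1.80-fold lower). Kat8, which acetylates lysine 16 of histone H4, had 432 in the DMA-tumor array and 615 in the Control array (1.43-fold lower). The paralogues Kat2a and Kat2b, catalytic subunits of SAGA and ATAC type complexes, were at -0.29 and -0.31. Kat7 and Kat6b, enzymes of the MYST family like Kat5 and Kat8, were at -0.10 and -0.17. Kat6a, of the same family, and Kat14, an ATAC subunit, had positive differences of 0.12 and 0.01.

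Arginine methyltransferase genes were evenly split, with 3 of 6 positive and a median of -0.05. Prmt1, the main enzyme of asymmetric arginine dimethylation, had 886 in the DMA-tumor array and 1390 in the Control array (1.57-fold lower). Prmt5, which makes the symmetric form, was at -0.15 and had the highest signals of the family (5309 in the DMA-tumor array and 5903 in the Control array). Prmt3 and Prmt9 were at 0.17 each, and both signs turned with quantile normalization (-0.003 and -0.01). Prmt7, which adds single methyl groups, was at -0.11, and Prmt6 at 0.01 (its other probe set at -0.16, under 100 on both arrays).

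Partner genes of the same marks, outside the symbol rule, also lay mostly within 2-fold, and those given below as higher or lower were past 2-fold. Over 7 lists, 130 of 143 genes were measured, with a median of 0.01. At least 2-fold higher were 4 (3.08%), beside 8.87% of all measured genes, and at least 2-fold lower 4 (3.08%), beside 10.5%. In single lists, 1 called gene made from 3.12% (further histone-modifying enzymes) to 14.3% (PRC2 partners), around those shares. Among 7 PRC2 partners, Phf1 was at least 2-fold lower (192 in the DMA-tumor array and 467 in the Control array), while Jarid2 and Aebp2 were at -0.57 and 0.41. The PRC2 core subunit Eed was at 0.31. Among 15 subunits of polycomb complex 1, Pcgf6 was higher (332 in the DMA-tumor array and 164 in the Control array) and Cbx6, a reader of methylated lysine 27, lower (1354 in the DMA-tumor array and 3512 in the Control array), with the ubiquitin ligase subunit Ring1 at -0.91.

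Of 21 deacetylase complex subunits, Tbl1xr1 of the NCoR complex was 2-fold or more higher (10090 in the DMA-tumor array and 4609 in the Control array), and Mta2 and Suds3 were at -0.74 and -0.66. Of 12 subunits of H3 lysine 4 methyltransferase complexes, Ncoa6, found with Kmt2c and Kmt2d, was higher (5222 in the DMA-tumor array and 2300.0 in the Control array), with Men1 at -0.78 and Ash2l at -0.50. Of 29 acetyltransferase complex subunits, Supt20h of SAGA was higher (6562 in the DMA-tumor array and 2603 in the Control array), with Ing5 at -0.96 and Sgf29 at -0.74. Each of these lists held 0 genes at least 2-fold lower.

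Of 32 further histone-modifying enzymes, the coactivator Ncoa1 was lower (1637 in the DMA-tumor array and 3908 in the Control array), and Nsd2, a methyltransferase of H3 lysine 36, and the arginine methyltransferase gene Carm1 were at 0.80 and -0.78. Of 14 acetyl-lysine readers, Brd2 was lower (3454 in the DMA-tumor array and 8439 in the Control array), with Atad2b and Brwd1 at 0.91 and 0.86. Genes of oxidative phosphorylation, the respiratory chain set plotted beside these lists, had 0 of 17 past 2-fold and a median of -0.23.

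**Figure D4:**
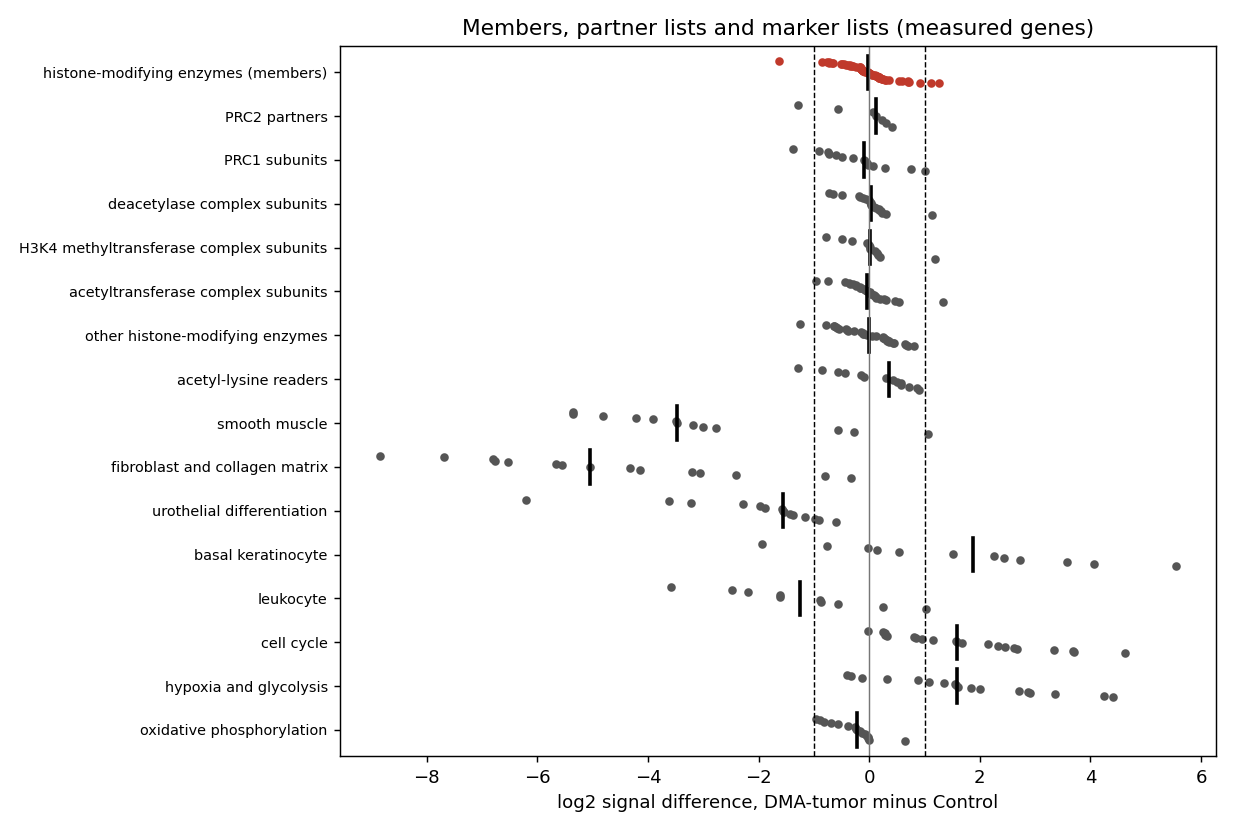
Log2 signal difference, DMA-tumor minus Control, of the measured members (red), of the 7 partner lists and of marker lists of cell types and states (grey), 1 point per gene with list medians as black bars and the 2-fold limits dashed. The members and partner lists stay mostly between the limits, while smooth muscle and fibroblast markers lie far to the left and cell cycle and hypoxia genes to the right.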

How the data were processed

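RNA was hybridized to 2 whole-transcript arrays, 1 per group, after TRIzol extraction and biotin labelling. The deposited values are intensity on a linear scale. RMA and Affymetrix Expression Console 1.4.1 appear in the submitters' processing notes. The methods of the study instead name a different (3' expression) array, global median scaling and removal of signals below 100, yet lower signals are in the table, so the normalization is not settled. Signals above 65535, the largest 16-bit value, numbered 1828 (DMA-tumor) and 1062 (Control), so folds may not be on the scanner's scale. Log2 was taken with no further normalization.

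The platform annotation gave 1 symbol to 23446 of 68842 probe sets, several to 505 and none listed to 44891. RefSeq's gene table matched 22077 of the single-symbol probe sets by Entrez ID and updated 1. Each gene was represented by its probe set of highest mean log2 signal, and 12074 genes reached 100 in either array. Called meant a ratio of at least 2 or at most 0.5. A fold against a signal under 100 is a bound, with that signal set to 100. Named were called members, up to 4 per family and up to 3 per partner list with the largest absolute log2 differences. Other members were named for their role after their values were seen. Members and lists were chosen with earlier results of these data known. In the 460 genes with 2 measured probe sets, log2 differences of the pair had a median absolute gap of 0.19 and the gap an SD of 0.62. Scripts were tested on simulated data. Alternatives covered the signal filter, centring, loess (span 0.3), quantile normalization, averaging of probe sets, raising low signals, and the call rule. Centring, loess and quantile normalization were fitted over all 68842 probe sets, those without a symbol included, before genes were taken. Software was Python 3.11.15 with pandas 2.3.3, numpy 2.4.6, matplotlib 3.10.9 and statsmodels 0.14.6.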

Additional observations from a re-analysis of the deposited data

How the results depend on the processing

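With 1 array per group no replicate could be left out, and no paired analysis was possible because the groups share no replicate pairs and no test was made. The count of members at least 2-fold higher (2) became 0 with quantile normalization, 7 at a ratio of 1.5 and 0 with the Z-score. The count at least 2-fold lower (1) became 3 with the loess trend removed, 5 with quantile normalization, 7 at a ratio of 1.5 and 0 with the Z-score. Of all measured genes, 13.5% were at least 2-fold lower with loess and 16.4% with quantile normalization, against 10.5% as deposited. Quantile normalization placed the median of all measured genes at -0.34 and loess at -0.19, against -0.08 as deposited, and the median of the members at -0.28 and -0.12, so relative to all genes the members stood at 0.06 and 0.07. With quantile normalization Ezh1, Hdac1, Hdac11, Hdac5 and Kat5 were the members at least 2-fold lower, and the cause was not tested. The filters, centring, mean of probe sets and raised low values left Setd4, Kmt5a and Hdac5 as the called members. Of 30 named members, 26 kept their sign in each alternative; Prmt3, Prmt9, Setd6 and Sirt3 did not. The median of the Sirt genes, 0.01, ranged from -0.24 to 0.01 and was negative in 7 of 8 alternatives, while that of the Kmt genes ranged from 0.01 to 0.29. After seeing the data, the medians of the genes grouped as lysine methyltransferases without Setd3 and of the H3K4 writers without Kmt2e were added. Both stayed positive (0.29 and 0.33). They were taken from the deposited values only, so they do not show how these groups depend on the normalization. Signals close to 100, as for Setd4 in the Control array, limit the precision of a ratio.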

Other observations

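The members' differences showed no steady relation with signal. By quartile of mean signal over all measured genes, from the lowest to the highest, the members had medians of 0.07 (6 of 9 positive), -0.13 (5 of 13 positive), -0.16 (3 of 21 positive) and 0.17 (15 of 22 positive). The highest quartile included Kmt2c, Kmt2e, Setd7 and Kdm5b, and the quartile below it Kat5, Prmt1 and Hdac5. The medians of all measured genes in the 4 quartiles, in the same order, were -0.08, -0.11, -0.06 and -0.08. The split was noticed after the values were seen and was not tested.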
